A study of Drosophila melanogaster with 16 samples.

Results

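The wing imaginal discs of scrib mutant Drosophila larvae were compared with wild-type wing discs. The arrays were chosen by the tissue and genotype in their labels, which gave 5 of the 16 arrays in the series: 3 of scrib discs and 2 of wild-type discs. The wing disc is the epithelial sac of the larva from which the wing and part of the dorsal thorax form. The mutant larvae carried 2 mutant alleles of scrib, scrib1 over scrib2, and were dissected at day 9 after egg deposition, where the labels record tumours. The wild-type larvae were dissected at day 5 and carried no tumours, so genotype and age change together and cannot be told apart. All larvae were in the third instar. The labels name no clone and no driver, give a genotype for the larva, and do not state the wild-type strain or how many discs went into one RNA extract. Wing discs of lgl mutants, with the l(2)gl alleles lgl27S3 over lglE2S31 and also taken at day 9, served as a mutant of the same age (3 arrays). Brain complexes of scrib mutants (3 arrays, day 9) and of the wild type (2 arrays, day 5) gave the same genotype contrast in another tissue. RNA was hybridised to single-colour Affymetrix expression arrays.

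Scrib is a scaffold protein of the basolateral membrane of epithelial cells and acts with Dlg and Lgl to keep it apart from the apical membrane. Discs without Scrib lose their single-layered architecture and overgrow, and larvae that carry such discs stay in the larval stage for days beyond the normal time of pupariation. Jun kinase (JNK) signalling, secreted cytokines and the relaxin-like hormone Ilp8, by which a damaged disc holds back the ecdysone pulse that ends larval life, have each been tied to growth of this kind.

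Every value is a log2 signal. Values on these arrays run from a floor of 2.21 to 15.94, and a probe set below 4 is treated as not measured. Wild-type replicates are numbered 1 and 2 and scrib replicates 1 to 3, and values are always given in that order. Neither mutated gene's label went against its arrays. The probe set for scrib read 9.76 and 10.75 on wild-type discs and 10.34, 10.10 and 9.89 on scrib discs (log2 change -0.15 ± 0.31 SE, adjusted p = 0.81), and since the labels do not say what the alleles do to the transcript, this level checks nothing. The probe set for l(2)gl read 10.51 and 10.72 on wild-type discs and 10.90, 10.72 and 10.70 on scrib discs, against 5.47, 2.99 and 2.42 on lgl discs. The wild-type discs varied more among themselves than the scrib discs did, with a pooled SD over probe sets of 0.65 against 0.36. Both wild-type arrays stood apart from the scrib arrays in markers of other tissues. Of the 5 arrays, wild-type replicate 1 read highest for fat body and muscle markers, and replicate 2 for salivary gland and ring gland markers. Values are given with those lists further on. Probe pairs for the 3′ and 5′ ends of eIF-4a, a control of RNA integrity, differed by 2.35 and 2.29 on wild-type discs and by 1.65, 1.71 and 2.0 on scrib discs. Those for actin and GAPDH ranged from 0.75 to 0.93 and from 0.49 to 0.52 on wild-type discs, and from 0.75 to 1.07 and from 0.31 to 0.37 on scrib discs. The part of these differences in the results was not tested.

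Among 7213 genes with a measured probe set of their own, 928 were higher in scrib discs (12.9%) and 718 were lower (9.95%) by limma at an adjusted p below 0.05. The change reached 2-fold in 477 of the higher and 388 of the lower genes, and 16-fold in 33 and 39. The median log2 change over all genes was 0.01. Counts of list members called below are to be set against these shares of all genes, 22.8% for both directions together. Because 2 wild-type arrays vary more than 3 scrib arrays, a second fit weighted each array by the spread of its group and is called the weighted fit below. It called 712 genes (9.87%), 444 higher (6.16%) and 268 lower (3.72%), and 711 of them were among the genes called without weights. The arrays of the 2 groups did not overlap for 3463 genes (48%), with 1882 (26.1%) above and 1581 (21.9%) below. Separate groups, stated below for single genes, are thus common and add little to a call. In a bulk disc, fewer cells of a type and less RNA per cell cannot be told apart. The labels do not say whether replicates came from separate sets of larvae, so p-values measure the spread between these arrays, which may be technical.

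**Figure D1:**
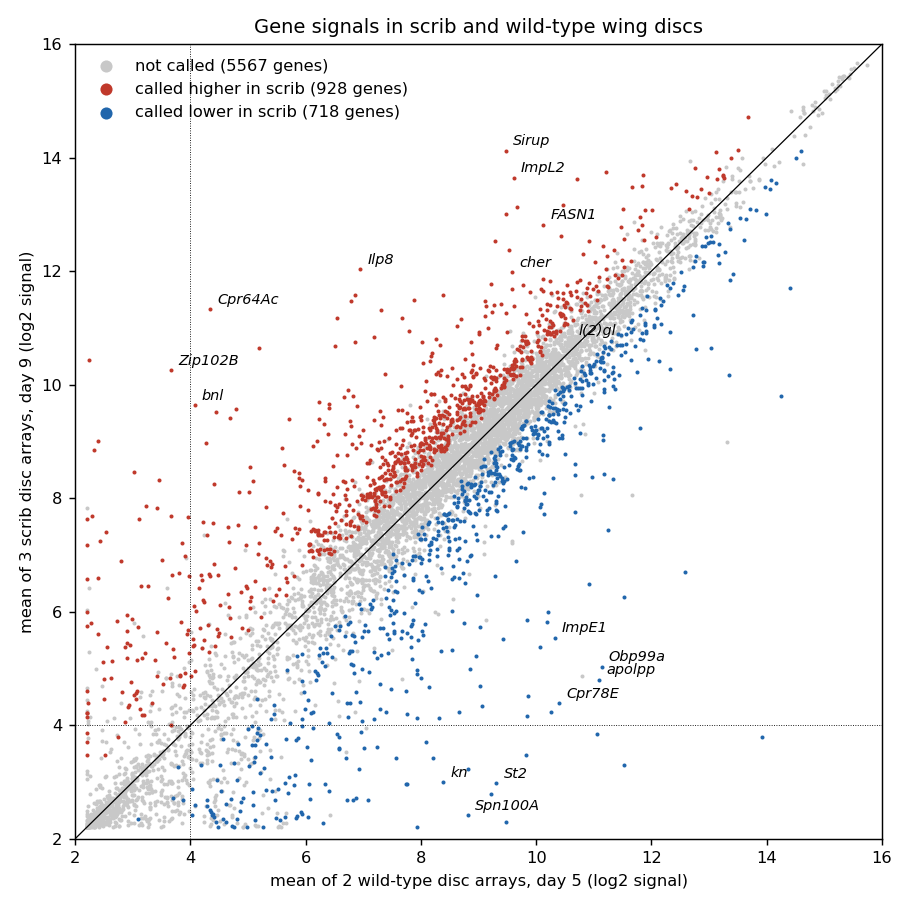
Mean log2 signal of each of 7213 genes on wild-type discs (x axis, 2 arrays) and on scrib discs (y axis, 3 arrays), coloured by the limma call at an adjusted p below 0.05. The 928 genes called higher lie above the diagonal and the 718 called lower lie below it, and the furthest genes on either side differ by many log2 units.

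The largest rises among genes measured on all 5 arrays were led by the cuticle protein gene Cpr64Ac, which read 4.46 and 4.22 on wild-type discs and 11.74, 10.20 and 12.04 on scrib discs (127-fold higher, log2 change 6.99 ± 0.90 SE, adjusted p = 1.8e-04). A second cuticle protein gene, Cpr47Eb, read 4.32 and 5.07 against 9.46, 9.52 and 9.27 (26.4-fold higher, log2 change 4.72 ± 0.75 SE, adjusted p = 7.9e-04). Genes of this ranking were picked with every scrib array above both wild-type arrays, so that separation is no result of its own. Sirup, an assembly factor of the mitochondrial enzyme succinate dehydrogenase, read 9.99 and 8.96 against 14.38, 13.65 and 14.34 (25.1-fold higher, log2 change 4.65 ± 0.34 SE, adjusted p = 1.6e-06). On lgl discs Sirup read 10.72, 10.31 and 10.53, above both wild-type arrays (lgl minus wild type 1.05 ± 0.34 SE, adjusted p = 0.0499, or 0.16 in the weighted fit) and below every scrib array. AcCoAS, which makes acetyl-CoA from acetate, read 6.56 and 6.46 against 10.75, 10.68 and 10.62 (18.1-fold higher, log2 change 4.17 ± 0.15 SE, adjusted p = 3.4e-09). Of these 4 genes, the scrib arrays lay closest together for AcCoAS and furthest apart for Cpr64Ac. ImpL2, a secreted binding protein of insulin-like peptides, read 8.79 and 10.42 against 13.97, 13.20 and 13.77 (16.5-fold higher, log2 change 4.04 ± 0.46 SE, adjusted p = 6.6e-05). The tetraspanin gene Tsp42El rose 14.8-fold, Ude, an enzyme that cuts uracil-containing DNA, 12.5-fold, and the 2 genes aspr and bero 11.5-fold and 11.4-fold. Means on lgl and scrib discs were 8.49 and 11.33 for Cpr64Ac, 9.62 and 9.42 for Cpr47Eb and 10.19 and 10.69 for AcCoAS. They were 12.04 and 13.65 for ImpL2, 10.93 and 10.74 for Tsp42El and 10.14 and 10.83 for Ude. For aspr they were 10.20 and 8.56, and for bero 12.86 and 13.0. By limma, scrib discs were called higher than lgl discs for Sirup, Cpr64Ac, AcCoAS and ImpL2, and lower for aspr. 

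The largest falls among genes measured on all 5 arrays were led by a fat body product, an odorant-binding protein gene and a cuticle protein gene. The lipid carrier gene apolpp, a product of the fat body, read 12.54 and 9.66 on wild-type discs and 4.39, 4.33 and 5.67 on scrib discs (78.6-fold lower, log2 change -6.30 ± 0.69 SE, adjusted p = 4.9e-05). The odorant-binding protein gene Obp99a read 12.10 and 10.17 against 4.59, 4.52 and 5.98 (68.7-fold lower, log2 change -6.10 ± 0.55 SE, adjusted p = 9.6e-06). The cuticle protein gene Cpr78E read 11.59 and 9.20 against 4.12, 4.61 and 4.43 (64.5-fold lower, log2 change -6.01 ± 0.64 SE, adjusted p = 3.9e-05). This ranking was likewise picked with all scrib arrays below both wild-type arrays. For these 3 genes the gap was several log2 units. Vajk3 and Vajk2 fell 20.7-fold and 18.5-fold, and the cytochrome P450 gene Cyp310a1 fell 15.9-fold. The list also held Obp99b, the clotting protein gene fon, the fat body gene Fbp2, the cuticle protein gene TwdlE and wbl. The calls of fon (adjusted p = 0.11) and TwdlE (0.20) were lost in the weighted fit. The call of fon (adjusted p = 0.13) was lost without wild-type replicate 1. The call of TwdlE (adjusted p = 0.17) was lost without wild-type replicate 2. The call of Obp99b was lost in the weighted fit (adjusted p = 0.24) and without wild-type replicate 1 (0.16), wild-type replicate 2 (0.055), scrib replicate 1 (0.057), scrib replicate 2 (0.089) or scrib replicate 3 (0.054). The call of Fbp2 was lost in the weighted fit (adjusted p = 0.22) and without wild-type replicate 1 (0.28), scrib replicate 1 (0.075), scrib replicate 2 (0.094) or scrib replicate 3 (0.052). The call of wbl was lost in the weighted fit (adjusted p = 0.20) and without wild-type replicate 2 (0.11) or scrib replicate 2 (0.054). wbl encodes a chaperone that the sulfotransferase Pip needs to leave the endoplasmic reticulum in the ovary. pip itself read 5.93 and 7.51 on wild-type discs and 2.66, 2.44 and 2.97 on scrib discs (at least 6.59-fold lower, log2 change -4.03 ± 0.40 SE, adjusted p = 2.0e-05), so its scrib arrays were all below 4.

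In the JNK pathway, transcription factors, an adaptor and several targets rose, while the kinases were not called on their brightest probe sets. Of 18 tested genes, 8 rose, 2 fell and 8 were not called, and the median log2 change was 0.93. The calls were 7 higher in the weighted fit, 6 higher and 1 lower without wild-type replicate 1, and 9 higher without wild-type replicate 2. The transcription factor Jra, fly Jun, read 9.07 and 9.52 on wild-type discs and 10.61, 10.71 and 10.64 on scrib discs (2.56-fold higher, log2 change 1.36 ± 0.16 SE, adjusted p = 8.6e-05). Its partner kay, fly Fos, read 9.08 and 10.56 against 11.08, 11.16 and 11.50 (2.69-fold higher, log2 change 1.43 ± 0.34 SE, adjusted p = 0.0089). Both factors were higher on every scrib array than on either wild-type array, as were 26.1% of all genes. The phosphatase gene puc, a JNK target that acts back on the kinase, read 8.24 and 9.13 against 9.99, 10 and 9.47 (2.19-fold higher, log2 change 1.13 ± 0.26 SE, adjusted p = 0.0072). The serine protease homologue gene scaf, another target, read 8.64 and 10.43 against 12.22, 12.56 and 12.33 (7.13-fold higher, log2 change 2.83 ± 0.50 SE, adjusted p = 0.0015), and the adaptor gene Traf4 read 6.88 and 7.74 against 8.69, 8.98 and 8.96 (2.97-fold higher, log2 change 1.57 ± 0.37 SE, adjusted p = 0.0092). Wild-type replicate 1 gave the lower wild-type value for kay, puc, scaf and Traf4. The filamin gene cher read 9.56 and 9.60 against 11.97, 11.89 and 12.09 (5.28-fold higher, log2 change 2.40 ± 0.27 SE, adjusted p = 5.5e-05). bsk, the Jun kinase, had a log2 change of -0.31 ± 0.16 SE (adjusted p = 0.18) on its brightest probe set and was called lower on its other one, with -0.56 (adjusted p = 0.031). hep, the kinase above it, had a log2 change of 0.73 ± 0.44 SE (adjusted p = 0.28) on its brightest probe set and of -0.96 (0.059) and -0.36 (0.69) on the others. msn, further up, had a log2 change of -0.50 ± 0.38 SE (adjusted p = 0.39). The list also holds Ilp8 and Pvf1, given below. egr, the TNF-like ligand at the top of the pathway, read 6.19 and 6.18 against 4.20, 5.59 and 4.59 and its log2 change was -1.39 ± 0.37 SE (adjusted p = 0.016, or 0.35 on a second probe set), and its receptor gene wgn had a log2 change of -0.99 ± 0.32 SE (adjusted p = 0.042). The call of puc (adjusted p = 0.069) was lost in the weighted fit. The calls of kay (adjusted p = 0.084), puc (0.081) and Traf4 (0.091) were lost without wild-type replicate 1. The call of egr was lost in the weighted fit (adjusted p = 0.21) and without wild-type replicate 1 (0.063), wild-type replicate 2 (0.063), scrib replicate 1 (0.058) or scrib replicate 3 (0.054). The call of wgn was lost in the weighted fit (adjusted p = 0.15) and without wild-type replicate 2 (0.27), scrib replicate 1 (0.073), scrib replicate 2 (0.094) or scrib replicate 3 (0.095). For kay the log2 change was 2.17 without wild-type replicate 2. The target Ets21C read 2.75 and 7.16 against 7.41, 6.77 and 7.05, so that 1 wild-type array overlapped the scrib arrays (adjusted p = 0.14, or 0.0021 without wild-type replicate 2).

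Secreted signals were among the large rises. Ilp8 read 6.15 and 7.74 on wild-type discs and 11.95, 11.91 and 12.23 on scrib discs (33.8-fold higher, log2 change 5.08 ± 0.75 SE, adjusted p = 4.6e-04). On lgl discs it read 12.30, 11.88 and 12.62, a range that overlaps the scrib arrays. Of 7 tested genes of FGF and PVF signalling, 3 rose and 4 were not called, and the median log2 change was 1.15. The weighted fit gave the same counts. The FGF ligand gene bnl, which draws tracheal branches towards a tissue, read 3.78 and 4.36 against 9.73, 9.32 and 9.85 (at least 43.7-fold higher, log2 change 5.56 ± 0.39 SE, adjusted p = 1.1e-06). Its lgl arrays read 5.11, 3.41 and 4.77, within about a log2 unit of the wild type, and scrib discs were higher than lgl discs by 5.20 ± 0.35 SE (adjusted p = 6.1e-07). The PDGF- and VEGF-like ligand gene Pvf1 read 2.96 and 6.63 against 9.32, 9.59 and 9.79 (at least 19.1-fold higher, log2 change 4.78 ± 0.76 SE, adjusted p = 7.9e-04), with 1 wild-type array below 4. Pvf2 read 7.86 and 9.20 against 10.27, 10.13 and 10.47 (3.38-fold higher, log2 change 1.76 ± 0.29 SE, adjusted p = 0.0011), and their receptor gene Pvr had a log2 change of 0.41 ± 0.33 SE (adjusted p = 0.42, or 0.011 without wild-type replicate 2). For Pvf1 the log2 change was 2.94 without wild-type replicate 1. For Pvf2 the log2 change was 1.09 without wild-type replicate 1.

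In JAK/STAT signalling, Unpaired cytokines bind the receptor Dome and act through the transcription factor Stat92E. Of 8 tested genes, 4 rose, 1 fell and 3 were not called, and the median log2 change was 0.84. These counts became 2 higher in the weighted fit and 2 higher and 1 lower without wild-type replicate 1. The ligand gene upd1 read 5.61 and 6.63 on wild-type discs and 8.98, 8.83 and 8.93 on scrib discs (6.93-fold higher, log2 change 2.79 ± 0.60 SE, adjusted p = 0.0055). All 3 scrib arrays were above both wild-type arrays, as for 26.1% of all genes. The repressor gene ken, which binds some Stat92E targets, read 8.59 and 8.50 against 10.04, 10.08 and 9.88 (2.73-fold higher, log2 change 1.45 ± 0.19 SE, adjusted p = 2.1e-04). Of the other risers, chinmo is given further on. The second cytokine gene, upd2, read 2.26 and 3.23 against 3.86, 3.50 and 4.0, below 4 on every array except scrib replicate 3 (log2 change 1.05 ± 0.33 SE, adjusted p = 0.037). The receptor gene dome had a log2 change of 0.63 ± 0.37 SE (adjusted p = 0.25), and Stat92E of -0.67 ± 0.20 (0.032). The call of upd1 (adjusted p = 0.074) was lost in the weighted fit. The call of upd1 (adjusted p = 0.051) was lost without wild-type replicate 1. The call of upd2 was lost in the weighted fit (adjusted p = 0.26) and without wild-type replicate 1 (0.32), scrib replicate 1 (0.088) or scrib replicate 3 (0.11). The call of Stat92E was lost in the weighted fit (adjusted p = 0.081) and without wild-type replicate 1 (0.11), wild-type replicate 2 (0.086), scrib replicate 2 (0.051) or scrib replicate 3 (0.11).

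**Figure D2:**
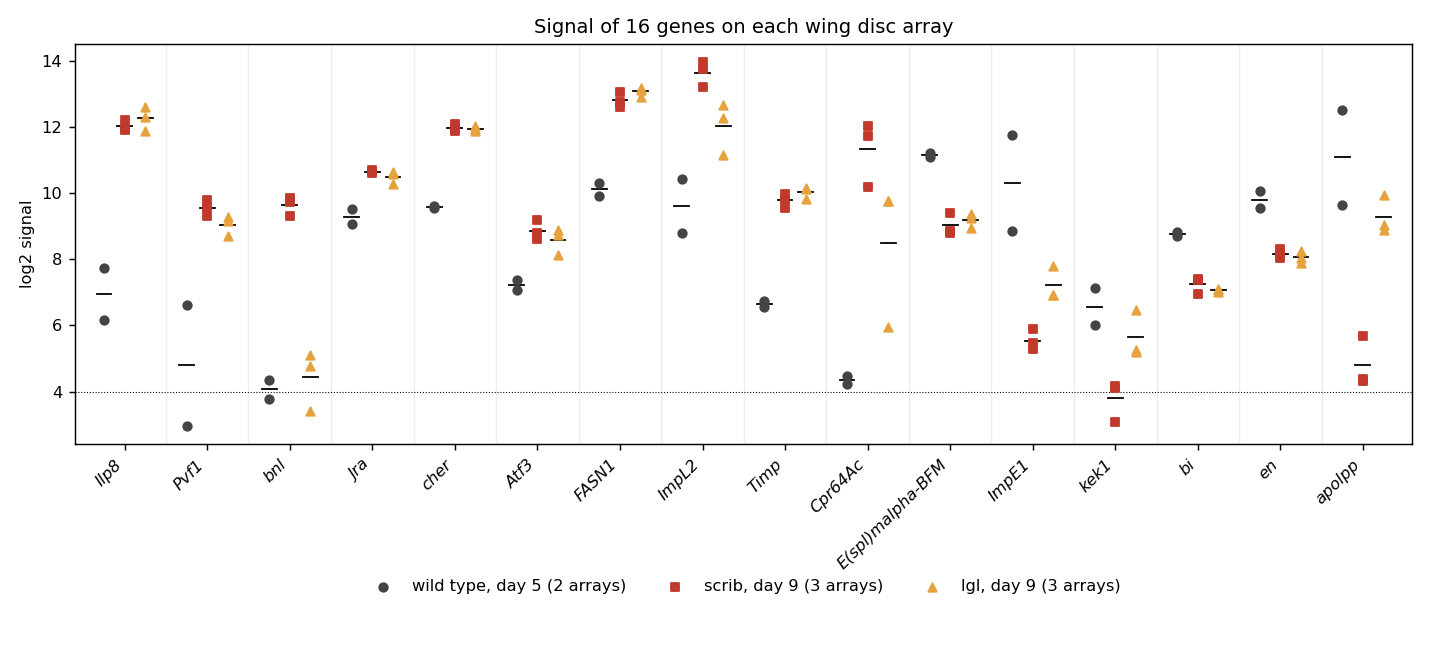
Log2 signal (y axis) of 16 genes on each of 2 wild-type, 3 scrib and 3 lgl disc arrays, with a bar at each group mean. For Ilp8, Pvf1, Jra and cher the scrib and lgl arrays lie together above the wild type, while for bnl the scrib arrays lie alone above both other groups.

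In the EGF receptor pathway the ligand gene spi rose, and of its inhibitors kek1 fell and aos rose. Of 11 tested genes, 2 rose, 2 fell and 7 were not called, and the median log2 change was 0.08. The share called was 36.4%, against 22.8% of all genes. The counts changed to 1 higher and 2 lower in the weighted fit, 1 higher and 2 lower without wild-type replicate 1, and 2 higher and 1 lower without wild-type replicate 2. The ligand gene spi read 11.70 and 11.84 on wild-type discs and 12.73, 12.73 and 12.71 on scrib discs (1.93-fold higher, log2 change 0.95 ± 0.12 SE, adjusted p = 1.1e-04). kek1, a target of the pathway that encodes a transmembrane inhibitor of the receptor, read 6.01 and 7.13 against 4.18, 4.11 and 3.09 (at least 5.55-fold lower, log2 change -2.78 ± 0.50 SE, adjusted p = 0.0017). The scrib and wild-type arrays did not overlap for either gene, nor for 48% of all genes. S, also named Star, which carries the ligand to its cleavage, read 8.77 and 9.14 against 8.07, 8.07 and 7.87 (1.93-fold lower, log2 change -0.95 ± 0.21 SE, adjusted p = 0.0061), and aos, a secreted inhibitor and pathway target, read 7.20 and 7.27 against 7.75, 8.35 and 7.99 (1.73-fold higher, log2 change 0.79 ± 0.20 SE, adjusted p = 0.012). The receptor gene Egfr had a log2 change of 0.08 ± 0.26 SE (adjusted p = 0.89). The call of aos (adjusted p = 0.12) was lost in the weighted fit. The call of aos (adjusted p = 0.054) was lost without wild-type replicate 1. The call of S (adjusted p = 0.056) was lost without wild-type replicate 2.

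The Dpp, Hedgehog and Hippo lists had at most 2 calls in either direction. Of 12 tested genes of Dpp signalling, 1 rose, 2 fell and 9 were not called, and the median log2 change was 0.09. The share called was 25%, against 22.8% of all genes. These counts were the same in the weighted fit. They became 2 higher and 2 lower without wild-type replicate 2. The target gene bi, also named optomotor-blind, read 8.72 and 8.82 on wild-type discs and 7.42, 6.96 and 7.37 on scrib discs (2.87-fold lower, log2 change -1.52 ± 0.22 SE, adjusted p = 4.0e-04). wit, a type II BMP receptor, read 9.18 and 9.65 against 8.35, 8.19 and 8.35 (2.16-fold lower, log2 change -1.11 ± 0.22 SE, adjusted p = 0.0029), and tld, a metalloprotease that frees BMP ligands from their antagonist, read 8.34 and 7.65 against 9.40, 9.37 and 9.59 (2.74-fold higher, log2 change 1.46 ± 0.29 SE, adjusted p = 0.0035). The groups did not overlap for these 3 genes, nor for 48% of all genes. The ligand gene dpp had a log2 change of 0.77 ± 0.35 SE (adjusted p = 0.14). Of 9 tested genes of Hedgehog signalling, 1 rose, 1 fell and 7 were not called, and the median log2 change was -0.05. Neither call held in the weighted fit. boi was called higher, with a log2 change of 0.75, or 0.39 without wild-type replicate 1. Its call was lost in the weighted fit (adjusted p = 0.062) and without scrib replicate 1 (0.079), scrib replicate 2 (0.089) or scrib replicate 3 (0.10). Hedgehog, made by the posterior compartment, is encoded by hh, which read 8.88 and 9.05 against 7.32, 7.42 and 7.04 (3.26-fold lower, log2 change -1.71 ± 0.32 SE, adjusted p = 0.0022). en, the selector gene of that compartment, read 9.55 and 10.07 against 8.33, 8.05 and 8.15 (3.10-fold lower, log2 change -1.63 ± 0.28 SE, adjusted p = 0.0012), and ptc, a Hedgehog receptor and target, had a log2 change of -0.45 ± 0.38 SE (adjusted p = 0.44). Of 13 tested genes of Hippo and Fat-Dachsous signalling, 1 rose, 1 fell and 11 were not called, and the median log2 change was 0.38. In other fits the calls were 1 higher in the weighted fit. The riser was fj, a Golgi kinase of the Fat and Dachsous cadherins, which read 9.78 and 10.41 against 11.24, 11.25 and 11.21 (2.20-fold higher, log2 change 1.14 ± 0.24 SE, adjusted p = 0.0046). Its companions did not pass, among them the Hippo target ex (0.74 ± 0.39, 0.20) and the growth effector yki (0.34 ± 0.36, 0.57). The call of hh (adjusted p = 0.092) was lost in the weighted fit. The call of fj (adjusted p = 0.051) was lost without wild-type replicate 1.

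Some Notch target genes of the Enhancer of split complex, transcribed where the receptor is active, were lower. Of 16 tested genes, 5 fell and 11 were not called, and the median log2 change was -0.23. The alternative counts were 4 lower in the weighted fit. All 5 falls were among the 9 tested genes of the complex. E(spl)malpha-BFM read 11.22 and 11.11 on wild-type discs and 8.81, 8.85 and 9.42 on scrib discs (4.41-fold lower, log2 change -2.14 ± 0.19 SE, adjusted p = 9.5e-06). E(spl)m4-BFM read 9.42 and 8.51 against 6.29, 5.19 and 4.16, and E(spl)m7-HLH read 9.60 and 8.83 against 7.35, 7.26 and 7.41. The scrib arrays of all 3 genes lay below both wild-type arrays, as for 21.9% of all genes. E(spl)mdelta-HLH read 9.59 and 9.24 against 7.65, 7.07 and 7.69 (3.86-fold lower, log2 change -1.95 ± 0.34 SE, adjusted p = 0.0015). The fifth, E(spl)m2-BFM, read 10.06 and 9.59 against 8.44, 8.83 and 9.25 (1.98-fold lower, log2 change -0.98 ± 0.28 SE, adjusted p = 0.023). The 4 members not called included E(spl)m3-HLH, with a log2 change of 0.73 ± 0.36 SE (adjusted p = 0.17), and E(spl)mbeta-HLH, with 0.08 ± 0.23 (0.88). On lgl discs E(spl)m4-BFM read 6.72, 6.41 and 6.46 and E(spl)malpha-BFM 9.36, 8.96 and 9.26. Of 15 genes of bristle and vein specification, 1 fell and 14 were not called, and the median log2 change was -0.33. Counts of calls were 2 lower without wild-type replicate 1. The call was lost in the weighted fit. The gene that fell was the proneural gene sc, which read 8.70 and 8.63 against 6.80, 6.26 and 6.72 (4.20-fold lower, log2 change -2.07 ± 0.41 SE, adjusted p = 0.0036). The call of sc (adjusted p = 0.051) was lost in the weighted fit. The call of E(spl)m2-BFM was lost in the weighted fit (adjusted p = 0.19) and without wild-type replicate 1 (0.15), scrib replicate 1 (0.081) or scrib replicate 2 (0.053).

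Genes of wing disc identity were lower in part. Of 18 tested wing disc genes, 5 fell and 13 were not called, and the median log2 change was -0.57. The share called lower was 27.8%, against 9.95% of all genes. Counted again, the calls were 3 lower in the weighted fit and 3 lower without wild-type replicate 2. The change was below 0 in 15 of the 18. The list's median per array was 8.52 and 8.99 on wild-type discs and 8.05, 8.02 and 7.91 on scrib discs. The falls were hh, en and bi, given above, the appendage gene Dll, which read 7.44 and 8.79 on wild-type discs and 6.72, 6.43 and 6.50 on scrib discs (2.96-fold lower, log2 change -1.57 ± 0.42 SE, adjusted p = 0.017), and the POU factor gene pdm2, which read 7.66 and 8.37 against 6.46, 6.46 and 6.13 (3.18-fold lower, log2 change -1.67 ± 0.49 SE, adjusted p = 0.026). The probe sets of the pouch genes nub and vg did not give 1 answer. nub had a log2 change of -0.57 ± 0.29 SE (adjusted p = 0.18) on its brightest probe set and was called lower on the other, with -2.49 (adjusted p = 7.8e-05). vg had -0.41 ± 0.34 (adjusted p = 0.45) on its brightest probe set and was called lower on the other, with -1.16 (adjusted p = 0.019). The dorsal selector gene ap read 11.25 and 11.63 against 11.60, 11.67 and 11.23 (0.06 ± 0.28, 0.94), so its arrays overlapped. On their brightest probe sets nub, vg and ap were above 9 on every scrib array, so these defining markers of the labelled tissue were present. The call of Dll (adjusted p = 0.11) was lost in the weighted fit. The call of Dll (adjusted p = 0.19) was lost without wild-type replicate 2. The call of pdm2 was lost without wild-type replicate 2 (adjusted p = 0.16), scrib replicate 1 (0.051), scrib replicate 2 (0.050) or scrib replicate 3 (0.077).

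Genes of the ecdysone response, the steroid pulse that drives the larva to pupariate, included 6 falls and 2 rises. The called genes with values in this paragraph are all falls, and the 2 rises are not named in it. Cyp18a1, which inactivates ecdysone, rose and is given further on with the cytochrome P450 genes. Of 17 tested response genes, 2 rose, 6 fell and 9 were not called, and the median log2 change was -0.56. The calls were 1 higher and 4 lower in the weighted fit. ImpE2, an ecdysone-inducible gene of discs, read 13.20 and 14.62 on wild-type discs and 2.30, 2.34 and 6.71 on scrib discs (at least 515-fold lower, log2 change -10.13 ± 1.52 SE, adjusted p = 5.1e-04). Its scrib replicate 3 was measured while replicates 1 and 2 lay at the floor. ImpE1, a second such gene, read 8.87 and 11.77 against 5.47, 5.27 and 5.88 (27.4-fold lower, log2 change -4.78 ± 0.81 SE, adjusted p = 0.0012). The transcription factor gene br, which marks the late larval stage, read 12.20 and 13.23 against 11.18, 11.12 and 11.41 (2.79-fold lower, log2 change -1.48 ± 0.34 SE, adjusted p = 0.0074), and Blimp-1, a repressor whose decay times the prepupal response, read 4.29 and 7.54 against 2.43, 2.52 and 2.49 (at least 3.76-fold lower, log2 change -3.43 ± 0.62 SE, adjusted p = 0.0018). The subunits of the hormone receptor did not pass: EcR had a log2 change of -0.05 ± 0.18 SE (adjusted p = 0.91) and usp of -0.06 ± 0.30 (0.94). The call of br (adjusted p = 0.088) was lost without wild-type replicate 2. For Blimp-1 the log2 change was -1.81 without wild-type replicate 2.

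Cuticle protein genes moved both ways. Of 23 tested genes, 2 rose, 7 fell and 14 were not called, and the median log2 change was -1.36. These counts became 2 higher and 3 lower in the weighted fit. Besides Cpr64Ac and Cpr47Eb above, no other member rose. Cpr67Fa2 read 7.48 and 6.68 on wild-type discs and 2.57, 2.79 and 2.68 on scrib discs (at least 8.45-fold lower, log2 change -4.40 ± 0.21 SE, adjusted p = 3.8e-08), and the Tweedle gene Twdlbeta read 6.90 and 4.81 against 2.63, 2.25 and 2.35 (at least 3.62-fold lower, log2 change -3.45 ± 0.47 SE, adjusted p = 2.5e-04). Both were below 4 on every scrib array. Of 15 genes of chitin and cuticle assembly, 2 rose, 1 fell and 12 were not called, and the median log2 change was 0.58. The counts did not change in the weighted fit. The counts changed to 4 higher and 1 lower without wild-type replicate 1 and 2 higher and 2 lower without wild-type replicate 2. The secreted growth factor gene Idgf4, of the chitinase-like family, read 11.12 and 11.19 against 12.40, 12.39 and 12.53 (2.44-fold higher, log2 change 1.29 ± 0.18 SE, adjusted p = 3.5e-04). mmy, which makes the sugar nucleotide for chitin, read 8.01 and 8.11 against 8.97, 8.84 and 9.36 (1.99-fold higher, log2 change 0.99 ± 0.15 SE, adjusted p = 6.2e-04), and the chitin-binding gene obst-A read 13.35 and 13.35 against 10.26, 10.40 and 9.84 (9.07-fold lower, log2 change -3.18 ± 0.54 SE, adjusted p = 0.0012). 

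Serpins, inhibitors of serine proteases, included some of the steepest falls. Of 12 tested genes, 2 rose, 3 fell and 7 were not called, and the median log2 change was 0.46. They became 2 higher and 2 lower in the weighted fit. Spn43Aa read 10.17 and 12.87 on wild-type discs and 2.84, 2.40 and 4.65 on scrib discs (at least 158-fold lower, log2 change -8.22 ± 1.20 SE, adjusted p = 4.2e-04). Spn100A read 7.65 and 9.99 against 2.34, 2.34 and 2.57 (at least 28.2-fold lower, log2 change -6.40 ± 0.63 SE, adjusted p = 2.1e-05). For both, the scrib arrays sat several log2 units below the lower wild-type array. Among the rises, Spn42Dc read 4.15 and 3.54 against 5.79, 5.97 and 5.71 (at least 3.37-fold higher, log2 change 1.98 ± 0.29 SE, adjusted p = 4.7e-04) and Spn55B read 7.74 and 9.01 against 11.44, 11.67 and 11.60 (9.16-fold higher, log2 change 3.20 ± 0.37 SE, adjusted p = 8.0e-05). 

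The polarity machinery to which Scrib belongs had a single call in transcript level. Of 13 tested genes, 1 fell and 12 were not called, and the median log2 change was 0.02. In other fits the calls were 2 lower without wild-type replicate 1 and 2 higher without wild-type replicate 2. The call was lost in the weighted fit. Of 14 genes of septate and adherens junctions, 2 fell and 12 were not called, and the median log2 change was 0.06. The alternative counts were 1 lower in the weighted fit, 1 lower without wild-type replicate 1, and 1 lower without wild-type replicate 2. The adherens junction gene alpha-Cat read 11.92 and 12.17 on wild-type discs and 10.93, 11.14 and 10.96 on scrib discs (2.05-fold lower, log2 change -1.04 ± 0.15 SE, adjusted p = 3.3e-04). dlg1, the partner of Scrib on the basolateral membrane, had a log2 change of -1.36 ± 0.43 SE (adjusted p = 0.039) on its brightest probe set, while its other probe sets were not called, with 0.30 (0.48) and -0.50 (0.21). p120ctn, a catenin, had a log2 change of -0.53 ± 0.14 SE (adjusted p = 0.018). The call of dlg1 was lost in the weighted fit (adjusted p = 0.21) and without wild-type replicate 1 (0.061), wild-type replicate 2 (0.19) or scrib replicate 3 (0.082). The call of p120ctn was lost in the weighted fit (adjusted p = 0.11) and without wild-type replicate 1 (0.051), wild-type replicate 2 (0.071) or scrib replicate 3 (0.053).

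Among genes of the basement membrane and its turnover, the protease inhibitor rose and a protease fell. Of 14 tested genes, 3 rose, 5 fell and 6 were not called, and the median log2 change was -0.05. Counts of calls were 2 higher and 2 lower in the weighted fit, 2 higher and 3 lower without wild-type replicate 1, and 3 higher and 2 lower without wild-type replicate 2. Timp, the inhibitor of matrix metalloproteases, read 6.75 and 6.57 on wild-type discs and 9.82, 9.56 and 9.97 on scrib discs (8.73-fold higher, log2 change 3.13 ± 0.28 SE, adjusted p = 7.5e-06). Mmp2, a matrix metalloprotease, read 5.45 and 6.67 against 2.94, 2.73 and 3.21 (at least 4.16-fold lower, log2 change -3.10 ± 0.48 SE, adjusted p = 6.3e-04). The arrays of the groups did not overlap for either gene, nor for 48% of all genes. On lgl discs Timp read 10.12, 10.17 and 9.84, within the scrib range or just beside it, whereas Mmp2 read 5.85, 4.98 and 6.53, and the scrib minus lgl difference of Mmp2 was -2.83 ± 0.43 SE (adjusted p = 5.4e-04). SPARC, a collagen-binding matrix protein, read 11.06 and 10.37 against 11.60, 12.11 and 11.69 (2.13-fold higher, log2 change 1.09 ± 0.26 SE, adjusted p = 0.0094), and the matrix protein gene Ppn read 11.39 and 12.87 against 10.63, 10.07 and 10.52 (3.30-fold lower, log2 change -1.72 ± 0.43 SE, adjusted p = 0.012). The collagen IV gene vkg, a product mainly of fat body and hemocytes, had a log2 change of -1.11 ± 0.42 SE (adjusted p = 0.074). The other calls were PH4alphaEFB, a prolyl hydroxylase gene, higher, and the collagen IV gene Col4a1, the laminin gene LanB2 and the perlecan gene trol, lower. trol is counted by its brightest probe set, with a log2 change of -1.14 ± 0.31 SE (adjusted p = 0.017), and another of its probe sets was called higher, with 1.27 (adjusted p = 0.033). The calls of SPARC (adjusted p = 0.10) and Ppn (0.14) were lost without wild-type replicate 2. The call of PH4alphaEFB was lost in the weighted fit (adjusted p = 0.061) and without wild-type replicate 1 (0.14) or scrib replicate 3 (0.073). The call of Col4a1 was lost in the weighted fit (adjusted p = 0.17) and without wild-type replicate 1 (0.24), scrib replicate 2 (0.061) or scrib replicate 3 (0.081). The call of LanB2 was lost in the weighted fit (adjusted p = 0.20) and without wild-type replicate 2 (0.31), scrib replicate 1 (0.057) or scrib replicate 3 (0.14). The call of trol was lost in the weighted fit (adjusted p = 0.17) and without wild-type replicate 1 (0.063), wild-type replicate 2 (0.066) or scrib replicate 3 (0.064). Of the 14 genes, 7 were called lower in scrib than in lgl discs and 1 higher, against 11.9% and 8.71% of all genes.

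Genes of lipid synthesis and storage changed in both directions. Of 12 tested genes, 5 rose, 2 fell and 5 were not called, and the median log2 change was 0.35. Counted again, the calls were 4 higher and 2 lower in the weighted fit. The fatty acid synthase gene FASN1 read 10.31 and 9.93 on wild-type discs and 13.06, 12.61 and 12.78 on scrib discs (6.47-fold higher, log2 change 2.69 ± 0.20 SE, adjusted p = 1.6e-06). ACC, which makes its substrate malonyl-CoA, read 7.82 and 8.52 against 9.95, 9.63 and 9.92 (3.16-fold higher, log2 change 1.66 ± 0.20 SE, adjusted p = 9.9e-05), and SREBP, the transcription factor of the synthesis genes, read 8.46 and 8.98 against 10.29, 10.07 and 10.17 (2.75-fold higher, log2 change 1.46 ± 0.20 SE, adjusted p = 2.4e-04). The scrib arrays of these 3 genes lay above both wild-type arrays, as for 26.1% of all genes. The lipid droplet gene Lsd-2 read 12.09 and 12.56 against 11.18, 10.90 and 10.72 (2.62-fold lower, log2 change -1.39 ± 0.21 SE, adjusted p = 6.2e-04), and the phosphatidate phosphatase gene Lpin read 3.99 and 3.81 against 5.10, 5.01 and 4.65 (at least 1.89-fold higher, log2 change 1.02 ± 0.14 SE, adjusted p = 3.4e-04). Outside the list, the malic enzyme gene Men, which makes NADPH, read 7.20 and 7.37 against 9.89, 9.17 and 9.55 (4.76-fold higher, log2 change 2.25 ± 0.24 SE, adjusted p = 3.8e-05). The fifth riser of the list was the lipase gene bmm, which breaks stored fat down and read 5.10 and 4.29 against 5.37, 5.77 and 5.54 (1.82-fold higher, log2 change 0.86 ± 0.23 SE, adjusted p = 0.019). The lipocalin gene GLaz of the list read 6.78 and 7.17 against 5.49, 5.56 and 5.64 (2.65-fold lower, log2 change -1.41 ± 0.35 SE, adjusted p = 0.011). The call of GLaz (adjusted p = 0.078) was lost without wild-type replicate 2. The call of bmm was lost in the weighted fit (adjusted p = 0.10) and without wild-type replicate 2 (0.20) or scrib replicate 2 (0.061).

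Enzymes, a transporter and a regulator from the list of glycolysis and the hypoxia response rose. Of 14 tested genes, 6 rose and 8 were not called, and the median log2 change was 0.46. The calls were 3 higher in the weighted fit. Hph, the prolyl hydroxylase that tags the hypoxia factor for destruction, read 8.39 and 9.01 on wild-type discs and 11.28, 10.52 and 11.66 on scrib discs (5.49-fold higher, log2 change 2.46 ± 0.34 SE, adjusted p = 2.7e-04). Pfk, the committed step of glycolysis, read 9.95 and 10.57 against 11.73, 11.11 and 11.99 (2.55-fold higher, log2 change 1.35 ± 0.26 SE, adjusted p = 0.0025), and the sugar transporter gene Tret1-1 read 6.70 and 7.08 against 9.35, 8.86 and 10.64 (6.61-fold higher, log2 change 2.73 ± 0.39 SE, adjusted p = 3.8e-04). The scrib arrays of these 3 genes were higher than both wild-type arrays, as for 26.1% of all genes. The other 3 called members, Hex-A, Ald1 and Eno, are enzymes of the same pathway. The call of Hex-A was lost in the weighted fit (adjusted p = 0.20) and without wild-type replicate 1 (0.28), scrib replicate 1 (0.071) or scrib replicate 3 (0.14). The call of Ald1 was lost in the weighted fit (adjusted p = 0.21) and without wild-type replicate 1 (0.19), wild-type replicate 2 (0.074), scrib replicate 1 (0.15), scrib replicate 2 (0.052) or scrib replicate 3 (0.053). The call of Eno was lost in the weighted fit (adjusted p = 0.19) and without wild-type replicate 1 (0.13), wild-type replicate 2 (0.077), scrib replicate 1 (0.075) or scrib replicate 3 (0.12). Scrib discs were also called higher than lgl discs in 7 of the 14 genes, against 8.71% of all genes. Of 15 genes of the respiratory chain, 2 fell and 13 were not called, and the median log2 change was 0.00. These counts became 1 higher without wild-type replicate 1 and 1 lower without wild-type replicate 2. These calls were all lost in the weighted fit.

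Among detoxification genes, 32% of the cytochrome P450 genes and 25% of the glutathione transferase genes were called, against 22.8% of all genes. Of 25 tested cytochrome P450 genes, 6 rose, 2 fell and 17 were not called, and the median log2 change was 0.18. The counts changed to 3 higher and 2 lower in the weighted fit. Cyp6a20 was not measured on wild-type discs, at 2.21 and 2.59, and read 8.97, 8.55 and 9.50 on scrib discs (at least 32.1-fold higher, log2 change 6.61 ± 0.73 SE, adjusted p = 5.2e-05). Cyp6a17 read 7.23 and 7.36 against 11.29, 11.08 and 11.60 (16.3-fold higher, log2 change 4.02 ± 0.32 SE, adjusted p = 3.2e-06), and Cyp4e2 read 10.02 and 10.56 against 8.20, 8.11 and 8.77 (3.82-fold lower, log2 change -1.93 ± 0.38 SE, adjusted p = 0.0030). These P450 genes have close relatives on the genome whose transcripts can share probes. Cyp18a1, which inactivates ecdysone, read 5.50 and 6.97 against 9.17, 9.42 and 10.49 (11-fold higher, log2 change 3.46 ± 0.63 SE, adjusted p = 0.0019). Of 24 glutathione transferase genes, 2 rose, 4 fell and 18 were not called, and the median log2 change was -0.06. They became 1 higher and 2 lower in the weighted fit, 3 higher and 2 lower without wild-type replicate 1, and 1 higher and 6 lower without wild-type replicate 2. GstE5 read 8.43 and 7.45 against 3.88, 5.27 and 3.24 (at least 11.4-fold lower, log2 change -3.81 ± 0.52 SE, adjusted p = 2.6e-04), and GstT4 read 9.42 and 8.84 against 11.18, 11.39 and 11.58 (4.77-fold higher, log2 change 2.25 ± 0.32 SE, adjusted p = 3.2e-04). The call of Cyp18a1 (adjusted p = 0.052) was lost in the weighted fit.

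The stress factor genes Atf3 and Irbp18 rose. Atf3 read 7.07 and 7.39 on wild-type discs and 8.81, 9.18 and 8.62 on scrib discs (3.11-fold higher, log2 change 1.64 ± 0.30 SE, adjusted p = 0.0023). Irbp18, a C/EBP-related factor, read 9.79 and 9.18 against 11.21, 10.86 and 11.71 (3.42-fold higher, log2 change 1.77 ± 0.26 SE, adjusted p = 4.2e-04). Neither gene had overlapping groups, as was true of 48% of all genes. Both belong to the list of stress transcription and the unfolded protein response. Of 12 tested genes in it, 2 rose, 2 fell and 8 were not called, and the median log2 change was 0.25. In other fits the calls were 2 higher and 1 lower in the weighted fit, 2 higher and 4 lower without wild-type replicate 1, and 4 higher and 1 lower without wild-type replicate 2. The fly ATF4 gene crc, also in the list, had a log2 change of 0.43 ± 0.21 SE (adjusted p = 0.16). The falls included Hsc70-3, the chaperone BiP of the endoplasmic reticulum, which read 12.69 and 13.64 against 12.30, 12.05 and 12.07 (2.03-fold lower, log2 change -1.02 ± 0.23 SE, adjusted p = 0.0071). Of 9 heat shock and chaperone genes, 2 rose, 2 fell and 5 were not called, and the median log2 change was -0.01. The alternative counts were 1 higher and 2 lower in the weighted fit and 3 lower without wild-type replicate 1. The small chaperone gene Hsp27 read 14.02 and 14.79 against 11.85, 11.19 and 12.08 (6.48-fold lower, log2 change -2.70 ± 0.31 SE, adjusted p = 6.6e-05), and Hsp110 read 10.75 and 10.96 against 10.19, 10.26 and 10.06 (1.61-fold lower, log2 change -0.68 ± 0.14 SE, adjusted p = 0.0036). Called higher were stv, with a log2 change of 0.99, and Hsf, with 0.55. Without wild-type replicate 1 these changes were 0.52 and 0.35. The call of Hsf was lost in the weighted fit (adjusted p = 0.14) and without scrib replicate 1 (0.071) or scrib replicate 3 (0.093). Of 11 cell death genes, 2 rose, 1 fell and 8 were not called, and the median log2 change was 0.00. The share called was 27.3%, against 22.8% of all genes. Counts of calls were 1 higher in the weighted fit, 1 higher and 2 lower without wild-type replicate 1, and 1 higher without wild-type replicate 2. The smallest adjusted p was that of the Bcl-2 family gene Debcl, which read 8.11 and 8.55 against 9.36, 9.30 and 9.59 (2.13-fold higher, log2 change 1.09 ± 0.22 SE, adjusted p = 0.0043). The call of Hsc70-3 (adjusted p = 0.072) was lost without wild-type replicate 2.

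The share of immune genes called, 20% of the antimicrobial peptide genes and 21.4% of the Toll and Imd genes, was near the 22.8% of all genes. Of 5 antimicrobial peptide genes, 1 rose and 4 were not called, and the median log2 change was 2.04. The weighted fit gave the same counts. The gene that rose was the cecropin gene CecB, which read 2.55 and 2.40 on wild-type discs and 5.11, 5.18 and 5.07 on scrib discs (at least 2.17-fold higher, log2 change 2.64 ± 0.18 SE, adjusted p = 9.3e-07). The antifungal peptide gene Drs read 3.86 and 4.59 against 8.39, 7.14 and 6.50, higher on every scrib array, and did not pass (log2 change 3.12 ± 1.08 SE, adjusted p = 0.055). Of 14 Toll and Imd genes, 2 rose, 1 fell and 11 were not called, and the median log2 change was 0.24. Counted again, the calls were 1 higher in the weighted fit. grass, a protease that starts the Toll cascade, read 6.54 and 6.99 against 9.26, 9.44 and 9.38 (6.04-fold higher, log2 change 2.59 ± 0.40 SE, adjusted p = 6.5e-04). 

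Lists of growth and division ranged in the share of genes called from 5.80% for mitochondrial ribosomal proteins and 5.88% for cytosolic ones, over 6.67% for Myc and the nucleolus, 10% for DNA replication and 17.6% for mitosis, to 22.2% for the proteasome, against 22.8% of all genes. Of 20 DNA replication genes, 2 rose and 18 were not called, and the median log2 change was 0.31. The calls were 1 higher in the weighted fit and 1 higher and 1 lower without wild-type replicate 2. Orc4, a subunit of the origin recognition complex, read 7.29 and 7.82 on wild-type discs and 8.54, 8.62 and 8.68 on scrib discs (2.09-fold higher, log2 change 1.06 ± 0.19 SE, adjusted p = 0.0019). Of 17 mitosis genes, 1 rose, 2 fell and 14 were not called, and the median log2 change was 0.22. These counts became 2 higher without wild-type replicate 1. These calls were all lost in the weighted fit. Of 15 genes of Myc and the nucleolus, 1 fell and 14 were not called, and the median log2 change was -0.22. These counts were the same in the weighted fit. The gene that fell was the Myc antagonist Mnt, which read 7.20 and 7.63 against 5.89, 5.46 and 5.45 (3.53-fold lower, log2 change -1.82 ± 0.45 SE, adjusted p = 0.011). Of 34 cytosolic ribosomal protein genes, 2 rose and 32 were not called, and the median log2 change was 0.10. The counts did not change in the weighted fit. The counts changed to 1 higher without wild-type replicate 2. The risers were RpL24-like, a ribosome assembly factor (2.16-fold higher, log2 change 1.11 ± 0.21 SE, adjusted p = 0.0025), and RpL7-like (2.23-fold higher, log2 change 1.16 ± 0.25 SE, adjusted p = 0.0055). Of 69 mitochondrial ribosomal protein genes, 3 rose, 1 fell and 65 were not called, and the median log2 change was 0.10. They became 1 higher in the weighted fit, 6 higher without wild-type replicate 1, and 2 higher and 2 lower without wild-type replicate 2. Of 27 proteasome genes, 6 fell and 21 were not called, and the median log2 change was -0.10. In other fits the calls were 1 lower in the weighted fit, 2 lower without wild-type replicate 1, and 2 lower without wild-type replicate 2. The call held in the weighted fit was that of Rpt3R, a variant of an ATPase subunit of its cap, which read 6.67 and 7.01 against 5.03, 4.74 and 5.02 (3.77-fold lower, log2 change -1.91 ± 0.25 SE, adjusted p = 2.0e-04). The calls of Mnt (adjusted p = 0.072) and RpL7-like (0.065) were lost without wild-type replicate 2.

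Genes of temporal identity, which mark early or late stages of a lineage, moved in opposite directions. Of 11 tested genes, 2 rose, 5 fell and 4 were not called, and the median log2 change was -0.31. The weighted fit gave the same counts. The alternative counts were 2 higher and 2 lower without wild-type replicate 2. chinmo, an early-stage factor, read 7.14 and 5.80 on wild-type discs and 8.41, 8.64 and 8.66 on scrib discs (4.29-fold higher, log2 change 2.10 ± 0.38 SE, adjusted p = 0.0018). Syp, a late-stage RNA-binding protein that acts against chinmo, read 12.43 and 13.13 against 10.93, 10.94 and 10.02 (4.44-fold lower, log2 change -2.15 ± 0.32 SE, adjusted p = 5.4e-04). The groups were separate for both genes, as for 48% of all genes. grh, a factor of epithelial barriers and late neuroblasts, read 10.95 and 11.69 against 10.21, 10.40 and 9.99 (2.17-fold lower, log2 change -1.12 ± 0.20 SE, adjusted p = 0.0017), and svp, a nuclear receptor of a temporal switch, read 6.33 and 7.28 against 5.63, 5.57 and 5.56 (2.34-fold lower, log2 change -1.22 ± 0.32 SE, adjusted p = 0.016). The RNA-binding protein gene Imp, the early-stage partner of chinmo, had a log2 change of 0.49 ± 0.38 SE (adjusted p = 0.40). A second probe set of svp was not called, with -0.86 (adjusted p = 0.076). Of 9 Polycomb group genes, 1 rose, 1 fell and 7 were not called, and the median log2 change was -0.02. Counts of calls were 1 lower in the weighted fit. These silence developmental programmes, and Pcl read 8.51 and 8.66 against 7.77, 7.59 and 7.13 (2.12-fold lower, log2 change -1.08 ± 0.20 SE, adjusted p = 0.0020). The call of svp (adjusted p = 0.17) was lost without wild-type replicate 2.

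**Figure D3:**
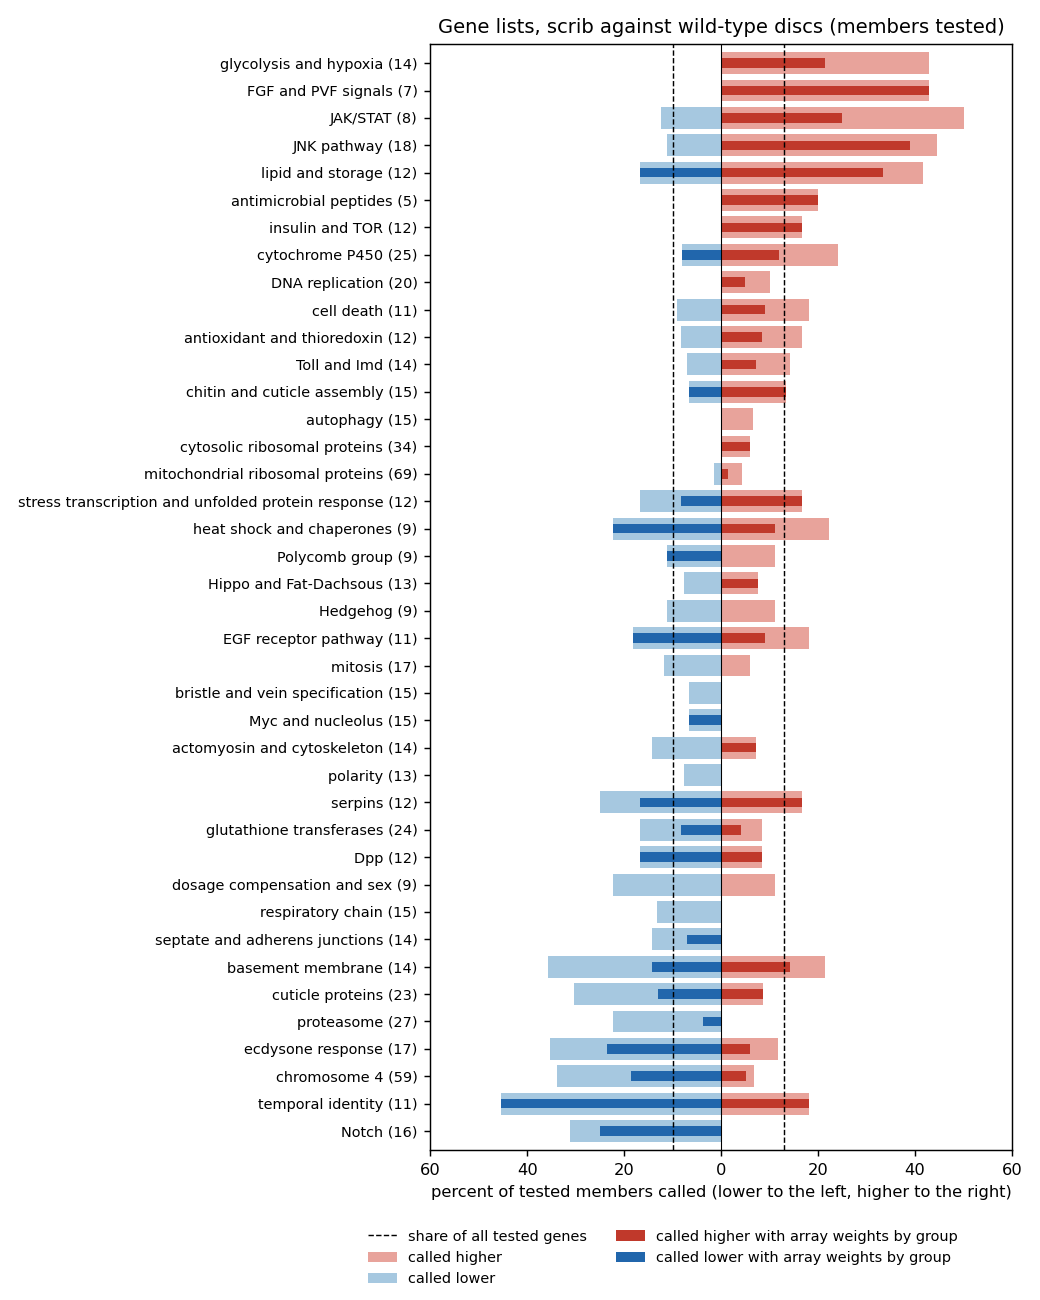
Percent of tested members called lower (left) or higher (right) in scrib discs for each gene list with 5 or more tested genes, tissue and cell type markers left out, with pale bars for the limma call, dark narrow bars for the weighted fit, and dashed lines at the shares of all tested genes, 12.9% higher and 9.95% lower. The JNK, JAK/STAT, FGF and PVF, glycolysis and lipid lists reach furthest to the right, and among the lists drawn the temporal identity, basement membrane and ecdysone lists reach furthest to the left.

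A set of 58 genes (0.804%) was measured on all 3 scrib arrays, unmeasured on both wild-type arrays and called higher. On every lgl array 19 of them were unmeasured too and 27 were measured. Called higher in scrib than in lgl discs were 32 of them, against 8.71% of all genes. The set was picked on the same scrib arrays, so that count is not independent of the pick. The zinc transporter gene Zip102B read 3.66 and 3.66 on wild-type discs and 10.27, 10.25 and 10.23 on scrib discs (at least 76.1-fold higher, log2 change 6.59 ± 0.16 SE, adjusted p = 3.3e-11), with 3.99, 3.66 and 3.83 on lgl discs. Tektin-C, a protein of ciliary microtubules, read 2.21 and 2.39 against 7.78, 7.83 and 7.46 (at least 12.9-fold higher, log2 change 5.39 ± 0.14 SE, adjusted p = 7.9e-11), and Dnaaf3, an assembly factor of ciliary dynein, read 2.21 and 2.21 against 7.95, 7.22 and 7.76 (at least 12.5-fold higher, log2 change 5.43 ± 0.24 SE, adjusted p = 1.6e-08). These 3 genes and the F-box gene Fbxl4 were also higher in scrib brains than in wild-type brains, with log2 changes there of 6.48, 5.76, 4.08 and 4.67. In discs Fbxl4 read 2.40 and 2.40 against 6.48, 6.44 and 6.87 (at least 6.06-fold higher, log2 change 4.20 ± 0.18 SE, adjusted p = 1.1e-08). On lgl discs Fbxl4 read 6.37, 6.34 and 6.66, close to the scrib arrays, while Tektin-C and Dnaaf3 were below 4 on every lgl array. Other genes of the set were Tdc2, the octopamine-synthesis enzyme of neurons (at least 3.55-fold higher, log2 change 3.10 ± 0.39 SE, adjusted p = 1.2e-04), the serine protease gene Sp212 (at least 5.47-fold higher, log2 change 3.31 ± 0.37 SE, adjusted p = 5.6e-05), the Osiris gene Osi15 (at least 3.98-fold higher, log2 change 3.79 ± 0.51 SE, adjusted p = 2.5e-04), JhI-26 (at least 3.48-fold higher, log2 change 3.52 ± 0.73 SE, adjusted p = 0.0044) and flap (at least 7.56-fold higher, log2 change 3.42 ± 0.60 SE, adjusted p = 0.0016). Means on lgl discs were 3.98 for Tdc2, 7.30 for Sp212, 5.90 for Osi15, 2.42 for JhI-26 and 8.62 for flap. For flap scrib discs were lower than lgl discs (-1.70 ± 0.54 SE, adjusted p = 0.041). In the weighted fit 45 of the 58 genes were called. The call of flap (adjusted p = 0.055) was lost in the weighted fit.

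In the other direction 64 genes (0.887%) were measured on both wild-type arrays, unmeasured on all scrib arrays and called lower, 46 of them also in the weighted fit. On lgl discs 32 of these were unmeasured on every array and 14 were measured on every array. Called lower in scrib than in lgl discs were 17 of them, against 11.9% of all genes. That count reuses the scrib arrays by which the set was picked. The sulfotransferase gene St2 read 8.24 and 10.38 on wild-type discs and 2.96, 2.22 and 3.76 on scrib discs (at least 39.6-fold lower, log2 change -6.32 ± 0.89 SE, adjusted p = 3.2e-04). kn, a transcription factor of the region between the central wing veins, read 7.84 and 8.91 against 3.35, 2.88 and 2.75 (at least 20.8-fold lower, log2 change -5.38 ± 0.42 SE, adjusted p = 2.5e-06). Both genes were below 4 on all scrib arrays. Gbs-70E, which ties a phosphatase to glycogen, read 5.96 and 7.80 against 2.39, 2.44 and 3.34 (at least 7.36-fold lower, log2 change -4.16 ± 0.55 SE, adjusted p = 2.2e-04), and cysu, a heme peroxidase gene needed in the wing, read 6.56 and 8.93 against 2.40, 2.75 and 3.75 (at least 13.4-fold lower, log2 change -4.78 ± 0.54 SE, adjusted p = 6.4e-05). Reph fell too (at least 7.08-fold lower, log2 change -4.13 ± 0.28 SE, adjusted p = 9.2e-07). 

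Of 59 tested genes on the small chromosome 4, 4 rose and 20 fell, which is 40.7% called against 21.7% to 23.5% on the other arms, and their median log2 change was -0.62. In the weighted fit 3 rose and 11 fell. Without wild-type replicate 1 the counts were 7 and 21, and without replicate 2 they were 3 and 15. On lgl discs the median change of the same genes against the same wild-type arrays was -0.05. Of the 59, 25 were called lower in scrib than in lgl discs and 1 higher, against 11.9% and 8.71% of all genes. The translation initiation factor gene eIF4G1 read 12.60 and 12.49 on wild-type discs and 11.70, 11.69 and 11.61 on scrib discs (1.83-fold lower, log2 change -0.87 ± 0.15 SE, adjusted p = 0.0016). 4E-T, which binds the cap-binding protein, read 10.24 and 10.49 against 9.49, 9.69 and 9.54 (1.72-fold lower, log2 change -0.78 ± 0.15 SE, adjusted p = 0.0028), and the ephrin receptor gene Eph read 10.17 and 10.27 against 8.91, 9.19 and 8.88 (2.35-fold lower, log2 change -1.23 ± 0.17 SE, adjusted p = 2.9e-04). The scrib arrays of all 3 were below both wild-type arrays, as for 21.9% of all genes. Sox102F, a Sox factor, fell at least 3.57-fold, fuss, a Ski family factor, at least 2.42-fold, and dati, a zinc finger gene, at least 2.61-fold. ci, the transcription factor of Hedgehog signalling on the same chromosome, read 12.39 and 12.36 against 12.41, 12.31 and 12.24 (log2 change -0.05 ± 0.24 SE, adjusted p = 0.94). Zip102B, the largest rise on chromosome 4, belongs to the genes unmeasured in the wild type. 

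**Figure D4:**
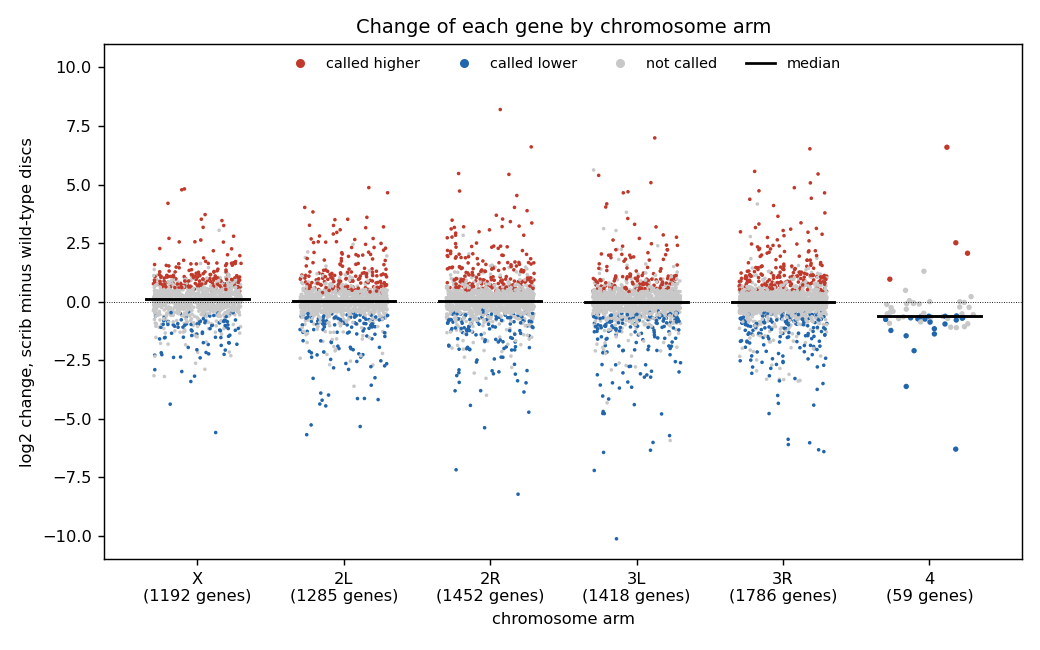
Log2 change of each tested gene, scrib minus wild-type discs (y axis), by chromosome arm (x axis), coloured by call, with a bar at each arm's median. The median lies between -0.02 and 0.11 on the 5 large arms and at -0.62 on chromosome 4.

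Markers of other tissues differed between the wild-type arrays themselves. The 6 fat body markers had a median of 12.06 and 9.50 on wild-type discs and 5.29, 4.81 and 6.48 on scrib discs, with 4 called lower. The summed linear signal of these markers was 51888 and 6857 on wild-type discs and 764, 805 and 965 on scrib discs. The larval serum protein gene Lsp2 read 14.83 and 11.78 against 8.77, 9.10 and 9.10. Mtp, which loads lipid onto apolpp, read 8.72 and 8.62 against 7.70, 7.50 and 7.57 (2.11-fold lower, log2 change -1.08 ± 0.17 SE, adjusted p = 8.9e-04). The fat body counts were 2 lower in the weighted fit, 2 without wild-type replicate 1 and 6 without replicate 2. The 10 muscle markers had medians of 7.79 and 6.25 against 5.03, 5.50 and 5.11, with 5 called lower, or 2 in the weighted fit and 2 without wild-type replicate 1. Their summed linear signal was 4110 and 1362 against 849, 1084 and 815. The tropomyosin gene Tm2 read 9.71 and 6.29 against 4.78, 4.71 and 5.01 (8.98-fold lower, log2 change -3.17 ± 0.72 SE, adjusted p = 0.0075). Salivary gland markers had medians of 3.51 and 6.61 against 2.44, 2.43 and 2.61, and ring gland markers 2.46 and 5.54 against 2.42, 2.29 and 2.94. Summed over the 10 salivary gland markers the linear signal was 832 and 9859 against 97, 111 and 469, and over the 5 ring gland markers it was 85 and 631 against 34, 48 and 40. The glue gene Sgs8 read 7.09 and 11.35 against 2.84, 2.94 and 2.56 (at least 37.2-fold lower, log2 change -6.44 ± 1.24 SE, adjusted p = 0.0028). The steroid synthesis gene spok read 2.40 and 8.82 against 2.26, 2.26 and 2.33. Of the 2 wild-type arrays, replicate 1 was thus higher in fat body and muscle markers, and replicate 2 in salivary gland and ring gland markers. The sets were not separate, since both wild-type arrays had higher medians than every scrib array for the fat body, muscle and salivary gland lists. Their part in the falls of apolpp, fon, Obp99a and other secreted products was not tested. The call of Tm2 (adjusted p = 0.052) was lost without wild-type replicate 1. For Tm2 the log2 change was -4.87 without wild-type replicate 2.

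Markers of neurons, hemocytes, neuroblasts, glia and the eye disc had at most 1 call in either direction. Of 13 neuronal markers, 1 rose, 1 fell and 11 were not called, and the median log2 change was -0.22. Counted again, the calls were 1 higher in the weighted fit and 5 lower without wild-type replicate 2. Their medians were 4.48 and 2.36 on wild-type discs and 2.80, 2.43 and 2.60 on scrib discs. The riser was the synaptic gene Snap25, which read 6.34 and 3.30 against 7.49, 7.42 and 7.65 (at least 5.10-fold higher, log2 change 2.70 ± 0.66 SE, adjusted p = 0.011), and the gene that fell was the neuronal RNA-binding protein gene elav, which read 8.95 and 8.16 against 6.67, 6.87 and 6.86 (3.37-fold lower, log2 change -1.75 ± 0.53 SE, adjusted p = 0.031). The synaptic genes Syn, VGlut and Gad1 were below 4 on every scrib array, and Gad1 read 4.61 and 2.29 on wild-type discs and 2.25, 2.43 and 2.33 on scrib discs. On lgl discs the median of the list was 6.12, 7.08 and 6.08. Called lower in scrib than in lgl discs were 9 of the 13 genes, against 11.9% of all genes. Of 12 hemocyte markers, 1 rose and 11 were not called, and the median log2 change was -0.49. These counts were the same in the weighted fit. Their medians were 5.31 and 6.10 against 5.49, 4.66 and 4.66. Of these markers, 9 were called lower in scrib than in lgl discs, against 11.9% of all genes. The riser atilla, a lamellocyte surface protein gene, read 8.53 and 6.22 against 10.02, 10.18 and 10.34 (6.98-fold higher, log2 change 2.80 ± 0.65 SE, adjusted p = 0.0081). Of 9 neuroblast markers, 1 rose, 1 fell and 7 were not called, and the median log2 change was -0.27. The calls were 1 higher in the weighted fit. The riser was the spindle orientation gene insc, which read 4.12 and 7.31 against 9.30, 9.38 and 9.52 (12.9-fold higher, log2 change 3.69 ± 0.68 SE, adjusted p = 0.0021). Of 8 glial markers, 1 rose, 1 fell and 6 were not called, and the median log2 change was -0.11. The counts did not change in the weighted fit. These counts became 2 higher and 2 lower without wild-type replicate 2. The blood-brain barrier gene moody read 5.87 and 6.96 against 9.66, 9.80 and 9.53 (9.51-fold higher, log2 change 3.25 ± 0.27 SE, adjusted p = 4.0e-06), and the glutamine synthetase gene Gs2 read 9.40 and 8.23 against 4.28, 2.72 and 2.70 (at least 26.5-fold lower, log2 change -5.59 ± 0.51 SE, adjusted p = 1.0e-05). Of 8 eye disc markers, 1 fell and 7 were not called, and the median log2 change was -0.30. The weighted fit gave the same counts. The counts changed to 1 higher and 2 lower without wild-type replicate 2. The gene that fell was the retinal factor dac (at least 11.6-fold lower, log2 change -4.14 ± 0.63 SE, adjusted p = 5.6e-04). The calls of Snap25 (adjusted p = 0.11) and atilla (0.10) were lost without wild-type replicate 2. The call of elav was lost in the weighted fit (adjusted p = 0.16) and without wild-type replicate 1 (0.18), scrib replicate 1 (0.075), scrib replicate 2 (0.060) or scrib replicate 3 (0.066). For Snap25 the log2 change was 4.22 without wild-type replicate 1. For insc the log2 change was 2.09 without wild-type replicate 1.

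**Figure D5:**
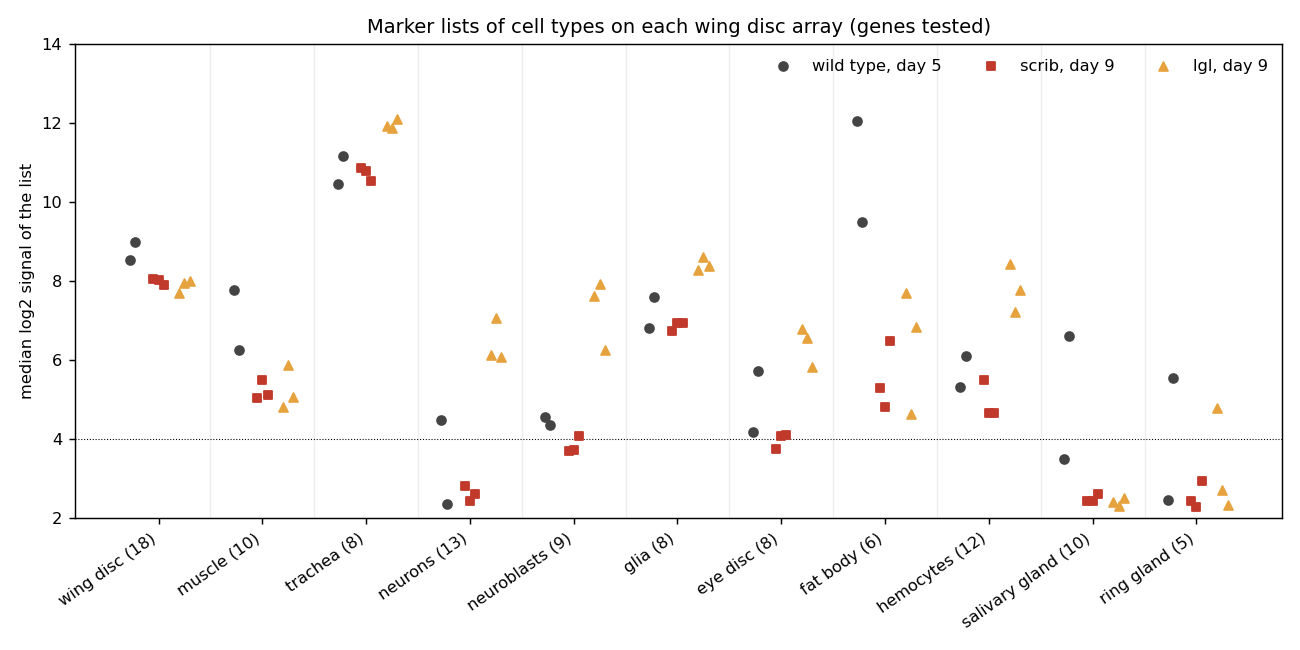
Median log2 signal (y axis) of marker lists for 11 tissues and cell types on each of 2 wild-type, 3 scrib and 3 lgl disc arrays. Fat body and muscle markers are highest on wild-type replicate 1 and salivary and ring gland markers on wild-type replicate 2, while neuronal markers are highest on the lgl arrays.

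Compared with lgl discs of the same age, scrib discs were higher in 628 of 7213 genes (8.71%) and lower in 860 (11.9%). Of the 928 genes called higher than the wild type, 312 were also called higher than lgl discs and 38 lower. Of the 718 called lower than the wild type, 259 were also called lower than lgl discs and 10 higher. Both comparisons use the scrib arrays, so the counts are not independent of each other. Counted as probe sets, 1805 differed from lgl discs, against 1050 without scrib replicate 3, 1202 without lgl replicate 2, 1165 without lgl replicate 3 and 3529 in the weighted fit. The largest differences above lgl discs, after l(2)gl itself, were in Zip102B and in tut, which works with the differentiation factor Bam in the male germline. tut read 8.93, 8.67 and 9.05 on scrib discs, 2.65, 2.65 and 2.65 on lgl discs and 4.96 and 6.20 on wild-type discs (scrib minus lgl 6.23 ± 0.40 SE, adjusted p = 4.7e-07). Hsc70-2, a testis-rich chaperone gene, read 8.67, 8.87 and 8.63 on scrib discs, 2.40, 2.42 and 2.71 on lgl discs and 7.07 and 9.03 on wild-type discs (6.21 ± 0.50 SE, adjusted p = 3.2e-06). The 6 largest differences below lgl discs were in Obp44a, eEF1alpha2, pros, toy, dac and Obp99a. The odorant-binding protein gene Obp44a read 3.82, 4.20 and 9.56 on scrib discs, so that replicate 3 stood apart, 14.01, 14.34 and 13.89 on lgl discs and 13.29 and 4.98 on wild-type discs (-8.22 ± 1.72 SE, adjusted p = 0.0048). The elongation factor gene eEF1alpha2 read 4.46, 2.93 and 6.68 on scrib discs and 11.77, 12.01 and 11.33 on lgl discs (-7.02 ± 0.65 SE, adjusted p = 1.1e-05). The neuronal factor pros read 2.28, 2.21 and 2.63 on scrib discs and 8.54, 10.19 and 9.28 on lgl discs (-6.96 ± 0.50 SE, adjusted p = 1.2e-06). The eye factor toy read 2.21, 2.41 and 2.30 against 8.68, 9.28 and 8.61 (-6.55 ± 0.36 SE, adjusted p = 1.5e-07). pros and toy were below 4 on every scrib array. The differences of dac and Obp99a were -6.43 ± 0.56 SE (adjusted p = 5.8e-06) and -5.94 ± 0.49 SE (adjusted p = 4.0e-06).

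The scrib difference in discs departed from the scrib difference in brain complexes for 807 of 7213 genes (11.2%). The signed log2 change in discs lay above that in brains for 443 genes (6.14%) and below it for 364 (5.05%). A gene that fell in brains alone counts among the former. Each tissue has its own wild-type arrays. bnl rose in discs as given above, and its change in brains was 0.48 ± 0.39 SE, a difference between tissues of 5.08 ± 0.55 (adjusted p = 1.0e-04, or 0.055 in the weighted fit). Cyp6a20 changed by -0.26 ± 0.73 in brains, a difference of 6.87 ± 1.03 (adjusted p = 0.0012). The rises of both genes were thus larger in discs. Counted as probe sets, 996 differed in their change between the tissues, against 137 in the weighted fit and 2255 without wild-type brain replicate 2. Of the 137, the signed change in discs lay above that in brains for 100 and below it for 37.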

How the data were processed

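RNA of larval wing discs and brain complexes was measured on single-colour Affymetrix arrays. The authors deposited log2 values normalised with GCRMA, per the submitters' processing notes, which corrects background by probe sequence, quantile-normalises all arrays together and holds unexpressed probe sets at a floor near 2.21. The arrays carry 18952 probe sets, including 183 controls that were left out; signal over background, not read depth, limits the precision. Probe sets at 4 or more on at least 2 of 16 arrays (8819) were fitted in R 4.3.3 with limma 3.58.1, with 1 mean for each of 6 groups and 10 residual degrees of freedom, with calls at a Benjamini-Hochberg adjusted p under 0.05. Adjusted p-values come from that fit unless the weighted fit or an array left out is named. The script was tested on simulated data. A gene is its brightest probe set with exactly 1 symbol in the platform annotation, 7213 in all; 4720 probe sets have no symbol and 402 have several.

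Genes were named by rule: scrib and l(2)gl; the 12 largest rises and falls among genes measured on all 5 arrays; up to 10 genes measured in 1 group alone, each way; up to 6 called members of each list, plus uncalled ligands, receptors and kinases; and the 6 largest differences each way from lgl discs and from brain. Genes known only by number were passed over. The members and the gene lists were chosen with earlier results of these data known. A fold is given as "at least" where any array of the lower group lies below 4, and is then computed with such arrays set to 4. Same-numbered replicates did not deviate together, so they were not paired. Alternatives were another filter, prior variance, normalisation, set of arrays, block, array weights by group, an added fold of 2 and each array left out.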

Additional observations from a re-analysis of the deposited data

Results flagged for a closer look

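The genes below were picked because their change between scrib mutant and wild-type arrays differed between wing discs and brain complexes by limma's test of that difference. For Cyp6a20 the difference (disc change minus brain change, log2) was 6.87 and for bnl it was 5.08. Cpr64Ac, the cuticle protein gene, changed by 6.99 in discs and 1.95 in brains, a difference of 5.04 (adjusted p = 0.024, or 0.55 in the weighted fit).

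NimA, Frq1 and Gabat differed through falls in the brain. NimA, a scavenger-receptor-like gene, changed by -4.88 in brains, and the difference was 4.88. Frq1, a neuronal calcium sensor, gave 4.67, and Gabat, which breaks down GABA, gave 4.29. All 3 were below 4 on every disc array, so their disc change was not measured and they were tested through their brain values.

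Products of fat body, salivary gland and cuticle lay at the other end. The difference was -9.31 for Fbp2, -8.14 for fon, -7.34 for Lsp2 and -6.06 for the glue gene Sgs5. The adjusted p-values of these differences in the weighted fit were 0.40, 0.34, 0.49 and 0.35. Each includes a higher mean on scrib than on wild-type brains, by 4.04, 2.81, 3.01 and 2.06. None of these brain changes was called by limma (adjusted p = 0.072, 0.13, 0.13 and 0.21). The scrib brain arrays had SDs of 2.72, 2.47, 2.67 and 2.46 for the same genes. The difference was -6.40 for Spn100A (0.093 in the weighted fit) and -6.35 for Cpr78E (0.023). Brain changes of that pair were -0.001 and 0.34. Fat body and salivary gland markers varied between the wild-type disc arrays, and their part in these differences was not tested.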

How the results depend on the processing

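Scrib against wild-type discs called 2042 probe sets. That count was 1120 when a 2-fold change was also asked for, 880 with array weights by group, 856 with only the 5 arrays compared and 1357 with the replicate block, and it ran from 1442 to 1815 with 1 array left out. Scrib against lgl discs called 1805, against 933 with the added fold, 3529 with array weights, 2988 with only the arrays compared and 1050 to 1440 with 1 array left out. Array weights moved the split there from 753 higher and 1052 lower to 1686 and 1843. The difference between disc and brain changes called 996, against 137 with array weights, 475 with only the arrays compared, 587 with the replicate block and 730 to 2255 with 1 array left out. Fewer arrays leave fewer residual degrees of freedom, but the scrib against lgl count rose to 2988 with only the arrays compared. That fit used scrib discs (pooled SD 0.36) and lgl discs (0.33), and left out the wild-type discs (0.65) and all brain arrays. Why the counts moved was not tested. Same-numbered replicates share a number only: their deviations from the group means correlated at -0.16 and 0.05 between wild-type and scrib discs. Over 237 genes and all alternatives, the call was kept or its lack was kept in 2715 cases, and a call was lost in 577 and gained in 14. No direction reversed where the gene was called in the main fit or in the alternative. Changes of sign in genes called in neither were not counted. The 5-array fit ended 91 calls, array weights 77, and leaving out wild-type replicate 1 or 2 ended 55 and 52. Pvf1, Pvf2, scaf, chinmo, Blimp-1, grh, Pcl, Pfk, Tret1-1, Hsp110, mmy and insc were among those whose call ended in the 5-array fit. The wild type rests on 2 arrays that differ in tissue markers, and age changes with genotype.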

Other observations

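Several genes have more than 1 probe set, and these did not always give the same value. For bnl the other probe sets gave log2 changes of 3.27 and 3.18, against 5.56 for the brightest one, and all 3 were called. For br, 4 further probe sets gave -2.37, -2.37, -3.17 and -1.90, all called lower. ImpE1 gave -1.52 (adjusted p = 0.058) and -2.02 (adjusted p = 0.030) on its other probe sets. The perlecan gene trol, a basement membrane protein, was called lower with its brightest probe set (-1.14, adjusted p = 0.017) and higher with another (1.27, adjusted p = 0.033). Its other probe sets gave 0.06 (0.79) and -0.82 (0.0498). Among the called genes 542 are known only by a number and were not named.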
